A study of Homo sapiens with 12 samples.

Results

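Gene expression in Matrigel culture was compared with that in flat culture in a pair of cancer cell lines, and the response described here is the average over both lines. All 12 of 12 RNA-seq libraries entered it: the difference between Matrigel and flat culture was taken in each line and the mean of the 2 differences was tested, with the line in the model. A549 comes from a lung cancer and MDA-MB-231 from a breast cancer. Each line gave 3 libraries from flat (2D) culture and 3 from Matrigel-based 3D culture. All cells grew in DMEM with 10% FBS and received no treatment. RNA was taken by TRIZOL at about 80% confluence from flat culture and on day 4 from Matrigel, and sequenced as stranded total RNA after ribosomal RNA depletion. Every flat against Matrigel difference is therefore a difference of matrix, geometry, density and time, which cannot be told apart. In bulk samples, fewer cells of a kind and less RNA per cell cannot be told apart either. Whether the 3 libraries in each group are independent cultures is not stated by the labels; the spread behind each p-value is that of these libraries and may be technical.

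Matrigel is an extract of the basement membrane made by a mouse sarcoma, rich in laminin and collagen IV. Cells embedded in it are held by a soft matrix on all sides and often grow as rounded clusters, while cells on plastic spread out and pull on a stiff surface. Integrins carry the contact to the actin cytoskeleton, and the coactivators YAP and TAZ and the transcription factor SRF are known to respond to that tension. Growth into clusters also changes access to oxygen, glucose and serum factors.

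Total expected counts ran from 5609327 to 28171901 per library, the lowest and the highest both in Matrigel A549, and of 27968 listed genes 15304 had enough counts to be tested. The replicate spread was widest in Matrigel A549, with a biological coefficient of variation of 0.179 against 0.0368 to 0.0563 in the other groups. Libraries from Matrigel differed from flat ones in make-up in both lines. The mean fragment length inferred from the deposited effective lengths was 180 and 137 bases in flat and Matrigel A549 and 212 and 184 bases in flat and Matrigel MDA-MB-231. Averaged over the lines, Matrigel minus flat was -35.8 bases, while the share of counts in small and structural RNA genes was 8.56 points higher and that in ribosomal RNA 5.78 points higher (exact permutation test within lines, two-sided, p = 0.005 for each, the smallest its 400 arrangements allow). Taken on TPM, the ribosomal RNA difference was -0.984 points (exact permutation p = 0.485), with -4.18 points in A549 and 2.21 in MDA-MB-231. The highest ribosomal RNA share, 16.5%, was in Matrigel A549 replicate 1. The 13 A549 markers summed to at least 14756 TPM (values scaled by length and library) in each A549 library and to at most 2054 in each MDA-MB-231 library. The 10 MDA-MB-231 markers summed to at least 4322 TPM in each MDA-MB-231 library and to at most 1241 in each A549 library. Single members went against these sums. In flat A549 and flat MDA-MB-231, EPCAM averaged 3.36 and 33.7 TPM and KRT19 43 and 200, both of the A549 list. SPARC, of the MDA-MB-231 list, averaged 5.88 and 0.27 TPM. CDKN2A, deleted in both lines, was at 0 counts in all 12 libraries. The alveolar markers SFTPC, SFTPB and NKX2-1 were near 0 in A549, and the hormone receptors ESR1 and PGR near 0 in MDA-MB-231. Of the line markers, NQO1 averaged 0.79 and CAV1 -1.82, and AKR1C1 passed in opposite directions, 2.61 in A549 and -0.70 in MDA-MB-231.

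Of the 15304 genes, 10296 (67.3%) passed on the average of the lines, 5204 (34%) higher in Matrigel and 5092 (33.3%) lower (edgeR's quasi-likelihood test, Benjamini-Hochberg adjusted p under 0.05, two-sided). A549 by itself passed in 65.7% of genes, MDA-MB-231 in 67.6%, and the difference between the lines in 56.1%. An average can pass because of 1 line alone, so a change was called shared only where the average and each line by itself passed with 1 sign. That held for 4810 genes (31.4%), of which 2344 (15.3%) rose and 2466 (16.1%) fell. Those were 46.7% of the genes called on the average. In 1967 (19.1%) only A549 passed, in 2473 (24%) only MDA-MB-231, in 122 neither line by itself, and in 924 (8.97%) the lines passed in opposite directions. In all, 6992 genes passed in both lines, 4810 of them (68.8%) with the same sign and 2182 with opposite signs, the last being 14.3% of the genes tested. Across genes the log2 fold changes of the lines were weakly related, with Pearson's r of 0.16 and Spearman's rho of 0.25, and r of 0.28 over the 10450 genes with an average log2 CPM (read counts scaled to the library total) of at least 3. Genes are not independent replicates, and these values are descriptions.

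**Figure D1:**
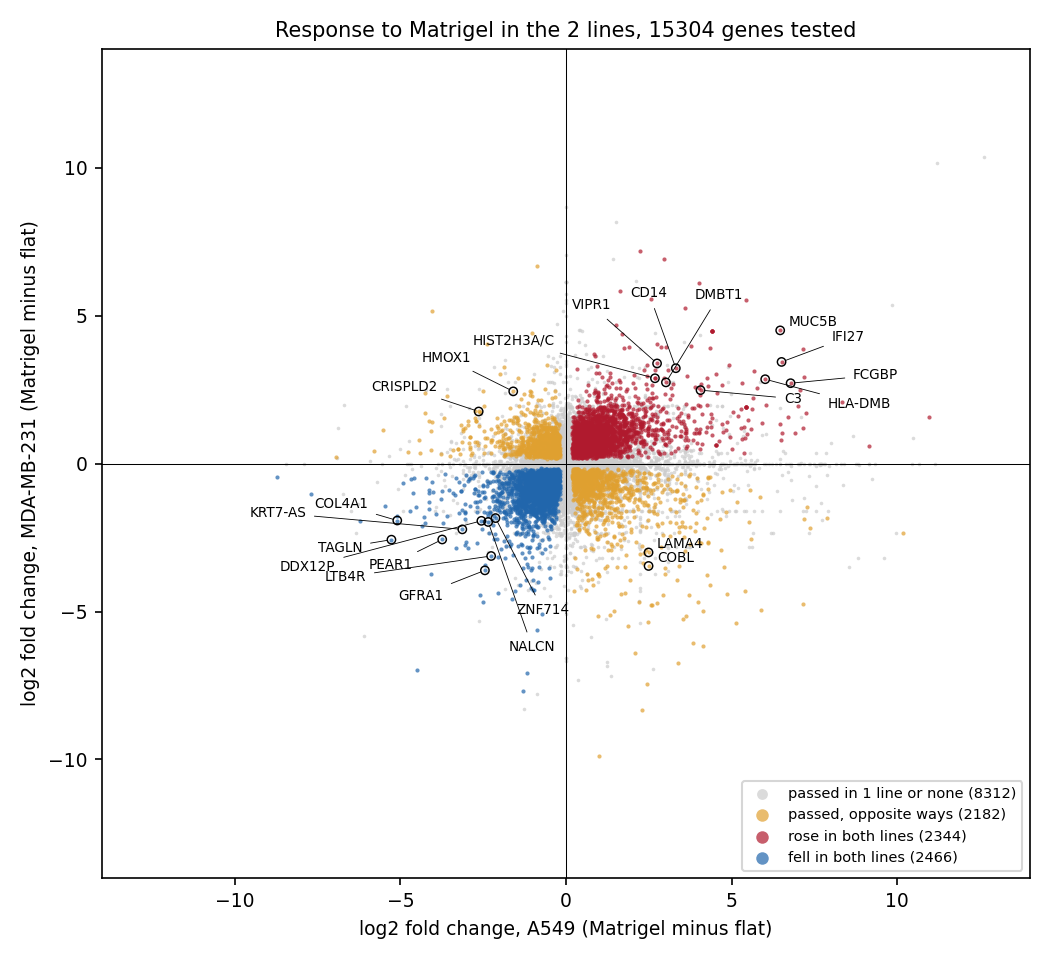
Each point is 1 of 15304 genes, with its log2 fold change (Matrigel minus flat) in A549 on the x axis and in MDA-MB-231 on the y axis. The 2344 genes that rose in both lines lie at the upper right and the 2466 that fell at the lower left, and the 2182 genes that passed in opposite directions fill the other corners. Circles mark the named genes.

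Most shared changes were modest. Genes that rose in both lines had a median average log2 fold change of 0.90 and those that fell one of -0.79. At least 2-fold in both lines were 574 rises and 381 falls, and at least 4-fold 76 rises and 25 falls. The size of a shared change often differed between the lines: the test of that difference passed in 1077 of the shared rises (45.9%) and in 1083 of the shared falls (43.9%). In 4340 genes (28.4% of those tested) that changed the same way, flat and Matrigel libraries did not overlap in CPM in either line.

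GC content moved with the shared direction. The median GC content of the transcripts was 56.7% in genes that rose in both lines, 42.3% in those that fell and 49.3% in all genes tested. In the 10% of genes with the lowest GC content 0.863% rose and 41.5% fell in both lines, and in the 10% with the highest 31.3% rose and 2.19% fell. The median log2 fold change went from -0.92 to 0.80 between those ends in MDA-MB-231 and from -0.24 to 0.22 in A549. Median gene length was 2139 bases for shared rises and 3715 for shared falls. When the trend with GC content and length was taken out of each library, 4224 genes changed the same way, 2259 higher and 1965 lower in Matrigel. Of the 4810, 2826 (58.8%) were among them with the same sign. The part of this trend, of fragment length and of RNA make-up in any single result was not tested, so the counts without the trend stand beside those of each gene list below.

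**Figure D2:**
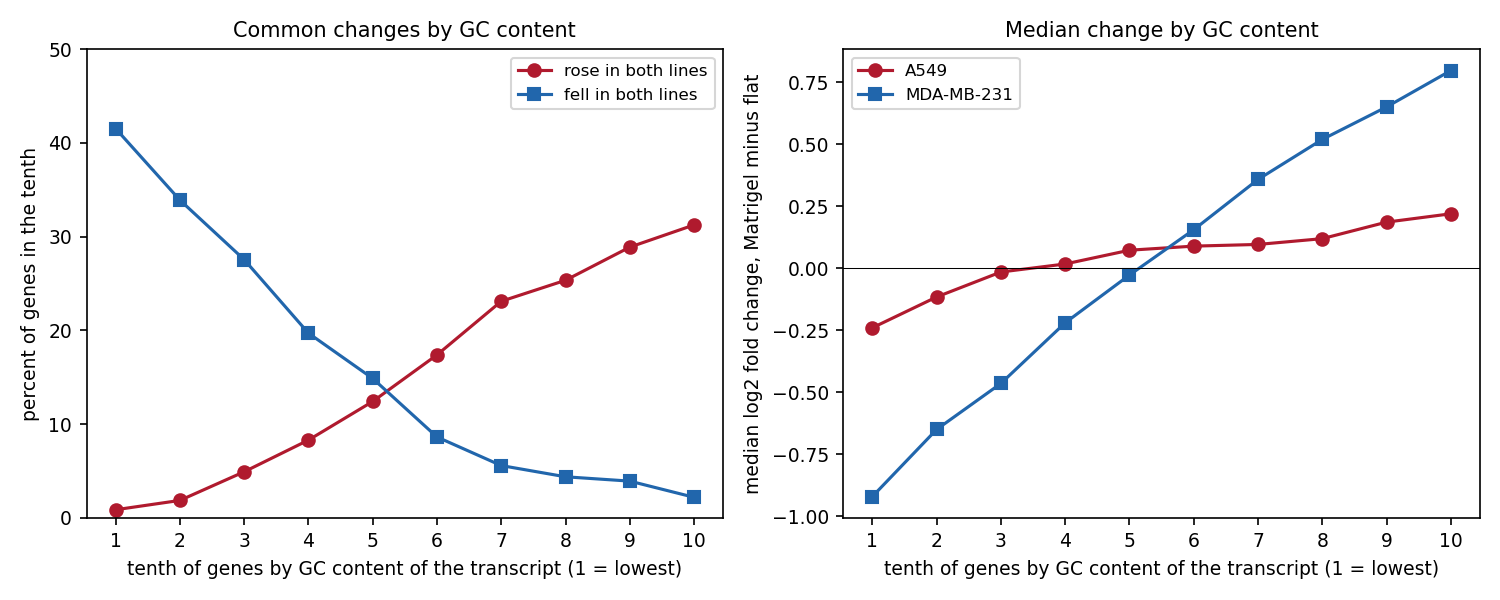
The x axis orders genes by GC content of the transcript in 10 equal bins, from lowest to highest. The left panel gives the percent of genes in each bin that rose or fell in both lines and the right panel the median log2 fold change in each line: rises go from 0.863% to 31.3% across the bins and falls from 41.5% to 2.19%.

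The largest shared rises, ranked by the smaller of the changes in the 2 lines, were MUC5B, IFI27, CD14, HLA-DMB, VIPR1, DMBT1, FCGBP, HIST2H3A, HIST2H3C and C3. To be named here, a gene had to have flat and Matrigel libraries apart in both lines, so that separation was fixed by the choice and is a description. The average log2 CPM of at least 3 also asked could be met through the culture with the higher values alone, as by MUC5B in Matrigel. The order and size of the named changes are therefore descriptions too. Here and below ± after a log2 fold change is its standard error and ± after a CPM is the SD of 3 libraries. MUC5B, a gel-forming airway mucin, read 0.719, 0.797 and 0.45 CPM in flat A549, 72.5, 52.7 and 51.6 in Matrigel A549, 0.127, 0.181 and 0.0434 in flat MDA-MB-231 and 2.22, 2.94 and 3.01 in Matrigel MDA-MB-231. No Matrigel library of a line fell to the level of its flat libraries. The average log2 fold change was 5.48 ± 0.21 (adjusted p = 1.6e-12), with 6.46 in A549 and 4.50 in MDA-MB-231. CD14, a co-receptor for bacterial lipopolysaccharide, read 2.05, 2.02 and 2.14 CPM in flat A549, 23.8, 17.2 and 20.3 in Matrigel A549, 2.07, 1.72 and 1.69 in flat MDA-MB-231 and 15.7, 16.8 and 18.6 in Matrigel MDA-MB-231. Its changes were 3.31 in A549 and 3.22 in MDA-MB-231, and the average was 3.27 ± 0.10 (adjusted p = 1.1e-13). C3, the central complement protein, read 14.2, 13.6 and 14.2 CPM in flat A549, 224, 170.3 and 299 in Matrigel A549, 120.1, 132 and 114 in flat MDA-MB-231 and 639, 696 and 707 in Matrigel MDA-MB-231. The average was 3.27 ± 0.11 (adjusted p = 1.5e-12), and flat and Matrigel libraries stood apart in both lines.

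HLA-DMB, part of the chaperone that loads peptides onto MHC class II, read 1.66, 2.02 and 1.97 CPM in flat A549, 109, 151 and 109 in Matrigel A549, 6.71, 6.19 and 5.99 in flat MDA-MB-231 and 40.3, 47.4 and 48.2 in Matrigel MDA-MB-231. Its average was 4.43 ± 0.11 (adjusted p = 1.1e-14), with no overlap between flat and Matrigel libraries. FCGBP, a mucus protein first known as a binder of IgG Fc, read 2.87, 3.35 and 4.16 CPM in flat A549, 333, 353 and 453 in Matrigel A549, 2.74, 2.71 and 2.39 in flat MDA-MB-231 and 14.2, 18.1 and 18.7 in Matrigel MDA-MB-231, with an average of 4.75 ± 0.11 (adjusted p = 1.1e-14). DMBT1, a secreted scavenger-receptor protein of mucosal surfaces, went from 0.201 ± 0.0282 to 1.61 ± 0.309 CPM in A549 and 6.25 ± 0.538 to 41.8 ± 2.31 CPM in MDA-MB-231, and VIPR1, a receptor for vasoactive intestinal peptide, from 0.418 ± 0.156 to 2.67 ± 0.429 CPM in A549 and 5.96 ± 0.269 to 62.1 ± 2.21 CPM in MDA-MB-231. IFI27, an interferon-induced mitochondrial protein, read 0.276, 0.0532 and 0 CPM in flat A549, 2.76, 1.37 and 19.2 in Matrigel A549, 3.8, 3.25 and 4.3 in flat MDA-MB-231 and 37.9, 42.7 and 42.1 in Matrigel MDA-MB-231. Its 3 Matrigel A549 libraries were far apart, and the average of 4.97 ± 0.65 (adjusted p = 1.2e-04) ranged from 3.84 to 5.83 as single libraries were left out; DESeq2 gave it no adjusted p. HIST2H3A and HIST2H3C are identical copies of a histone H3 gene between which reads cannot be placed, so their rise, 2.78 ± 0.32 (adjusted p = 7.5e-07) for HIST2H3A, is 1 uncertain observation.

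**Figure D3:**
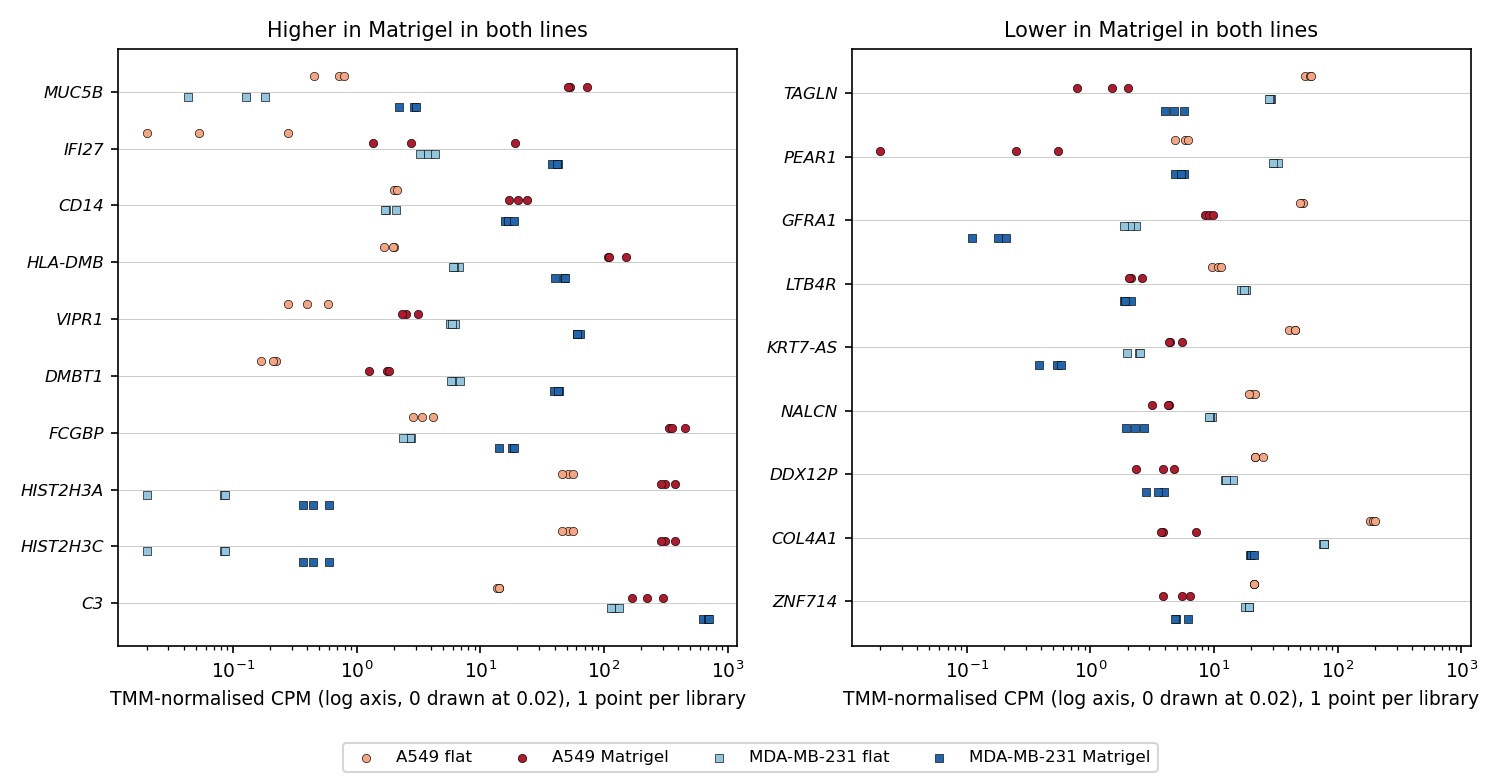
TMM-normalised CPM (log axis, with 0 drawn at 0.02) of the 10 largest shared rises and 9 of the 10 largest shared falls, 1 point per library, coloured by line and culture. Within each line the 3 Matrigel libraries lie wholly to 1 side of the 3 flat libraries for all 19 genes, as the rule that chose them required.

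CD14 and HLA-DMB are also known as genes of myeloid and antigen-presenting cells. The 7 leukocyte markers summed to 4.61 to 5.2 TPM in flat A549, 16.8 to 29.1 in Matrigel A549, 364 to 455 in flat MDA-MB-231 and 1762 to 1917 in Matrigel MDA-MB-231. CD3E and TYROBP were at 0 in all 12 libraries, and PTPRC, which marks all leukocytes, had 1 count in flat A549, 1 in Matrigel A549, 36 in flat MDA-MB-231 and 3 in Matrigel MDA-MB-231. Most of the sum in MDA-MB-231 was CD74, the invariant chain, which epithelial cells also make. CD14, CD68 and LYZ rose in both lines, with averages of 3.27, 1.88 and 4.46; LYZ had 0 counts in flat A549, so its fitted value is no bound. Fibroblast, endothelial and erythroid marker sums stayed at or under 5.67 TPM. PECAM1, of the endothelial list, averaged 3.63, a call lost on log2(TPM + 1). It had 0 counts in flat and 16 in Matrigel A549, so its fitted value is no bound either. COL1A1, of the fibroblast list, passed in opposite directions, -1.85 in A549 and 1.01 in MDA-MB-231. The part of such cells in the rise of CD14 and HLA-DMB was not tested.

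Among the 10 largest shared falls were TAGLN, PEAR1, GFRA1, LTB4R, KRT7-AS, NALCN, DDX12P, COL4A1 and ZNF714. They held an actin-binding protein of contractile cells, a basement membrane collagen and several receptors or channels. TAGLN (transgelin), an actin-binding SRF target, read 54.8, 59.97 and 60.8 CPM in flat A549, 2.01, 0.781 and 1.5 in Matrigel A549, 28.9, 28.5 and 27.9 in flat MDA-MB-231 and 5.78, 4.77 and 4.05 in Matrigel MDA-MB-231. The groups did not overlap, and the average was -3.92 ± 0.10 (adjusted p = 2.9e-14), larger in A549. COL4A1, a chain of collagen IV, read 183, 194 and 201 CPM in flat A549, 3.89, 3.71 and 7.1 in Matrigel A549, 77.2, 75.6 and 77.6 in flat MDA-MB-231 and 19.7, 19.8 and 21 in Matrigel MDA-MB-231. Its average was -3.51 ± 0.10 (adjusted p = 4.3e-14), with -5.10 in A549 and -1.92 in MDA-MB-231. GFRA1, a receptor for the neurotrophic factor GDNF, read 51.1, 52.6 and 49.9 CPM in flat A549, 8.52, 9.18 and 9.9 in Matrigel A549, 2.32, 2.08 and 1.87 in flat MDA-MB-231 and 0.178, 0.21 and 0.11 in Matrigel MDA-MB-231, with an average of -3.03 ± 0.14 (adjusted p = 1.0e-11). LTB4R, a leukotriene B4 receptor, read 9.67, 10.8 and 11.4 CPM in flat A549, 2.63, 2.15 and 2.05 in Matrigel A549, 16.7, 18.2 and 17.4 in flat MDA-MB-231 and 1.87, 2.15 and 1.92 in Matrigel MDA-MB-231, and averaged -2.69 ± 0.10 (adjusted p = 6.8e-13). In each of these genes every Matrigel library lay under every flat library of its line.

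PEAR1, an EGF-repeat receptor first found in platelets, went from 5.58 ± 0.684 to 0.268 ± 0.276 CPM in A549 and 31.1 ± 1.7 to 5.29 ± 0.437 CPM in MDA-MB-231. The sodium leak channel NALCN went from 20.2 ± 1.08 to 3.88 ± 0.651 CPM in A549 and 9.36 ± 0.307 to 2.33 ± 0.393 CPM in MDA-MB-231. Their averages were -3.15 ± 0.15 and -2.16 ± 0.10 (adjusted p = 1.6e-11 and 7.3e-12). ZNF714, a zinc finger gene, averaged -1.99 ± 0.10 (adjusted p = 2.3e-11). KRT7-AS overlaps KRT7 on the other strand and DDX12P is a pseudogene with close relatives, so their values, -2.68 ± 0.13 and -2.25 ± 0.11, are uncertain: the strand setting of the counting is not given in the sources used here. Among these 19 genes the shared call held in each alternative analysis tried, the test against a fold of 2 not counted, apart from IFI27, for which DESeq2 gave no adjusted p.

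A few genes were near off in flat or in Matrigel culture of both lines. CACNA1S, a calcium channel subunit, had 1 and 3 counts in all flat libraries of A549 and MDA-MB-231 and 15 and 169 in their Matrigel libraries. MUC2, the intestinal gel-forming mucin, had 0 and 2 counts in flat and 38 and 13 in Matrigel libraries of A549 and MDA-MB-231. BNC1, a basonuclin zinc finger of squamous epithelium and germ cells, had 66 and 14 counts in flat and 2 and 2 in Matrigel libraries, and LINC01583 55 and 6 against 2 and 0. Each passed in both lines, but the shared call of MUC2 was lost without MDA-MB-231 Matrigel replicate 2, that of BNC1 without MDA-MB-231 flat replicate 1 or Matrigel replicate 2 or 3, and that of LINC01583 without MDA-MB-231 Matrigel replicate 2 or 3. On log2(TPM + 1) all 4 lost it, with small RNA set aside MUC2, BNC1 and LINC01583 did, and with DESeq2 BNC1 and LINC01583.

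Averages can also hide opposite responses. COBL, an actin nucleator, and LAMA4, a laminin chain, were higher in Matrigel in A549 and lower in MDA-MB-231, with log2 fold changes of 2.49 in A549 and -3.46 in MDA-MB-231 for COBL and of 2.49 in A549 and -3.00 in MDA-MB-231 for LAMA4. CRISPLD2, a secreted protein, and HMOX1, the heme-degrading enzyme, went the other way, with -2.64 in A549 and 1.76 in MDA-MB-231 for CRISPLD2 and -1.60 in A549 and 2.44 in MDA-MB-231 for HMOX1. The averages of these 4 genes, -0.49, -0.26, -0.44 and 0.42, describe neither line. For CRISPLD2 the size of the A549 fall depended on Matrigel A549 replicate 3, at 1.26 CPM against 0.125 and 0.195 in the other Matrigel A549 libraries. Without replicate 3 the A549 fall was larger, -5.07, and the average was -1.65. The lines still passed in opposite directions then, with 1.76 in MDA-MB-231. Without that library the average of LAMA4 was -0.48, with 2.05 in A549. On log2(TPM + 1) the averages of COBL and HMOX1 took the other sign, as did that of HMOX1 without the GC and length trend.

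The functions that moved the same way were read from 65 gene lists with 1654 tested members. Against the 15.3% of all genes that rose and the 16.1% that fell in both lines, and a median average log2 fold change of 0.03 over all genes (0.03 in A549 and 0.00 in MDA-MB-231), lists of energy metabolism, lysosome, MHC class I presentation and mucins held more rises. Lists of cell division, DNA repair, nuclear transport and ribosome assembly held more falls. The counts and medians describe the lists and are not tests of them. Members named per list as shared were those with the smallest p of the average, so libraries apart in both lines largely follow from that choice. Such separation held in 2054 of the 2344 shared rises and 2286 of the 2466 shared falls.

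**Figure D4:**
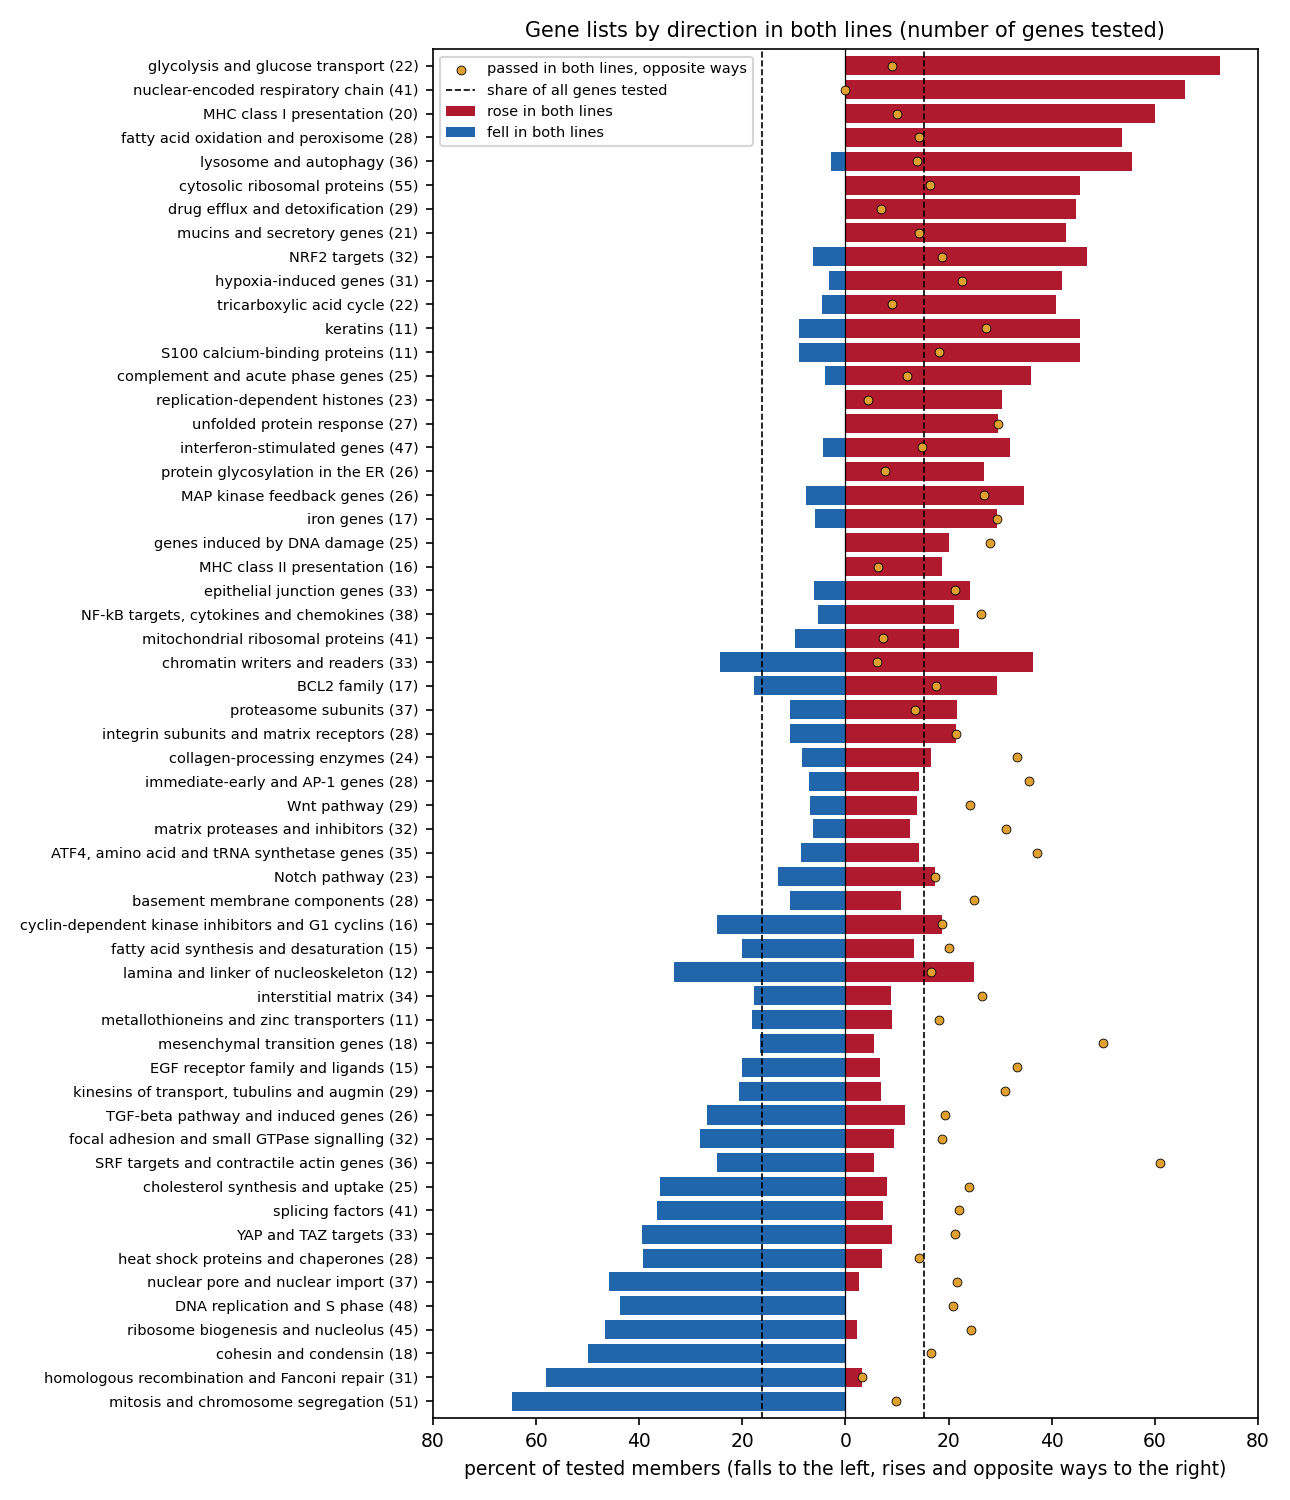
Bars give the percent of the tested members of each list that rose (right) or fell (left) in both lines, points the percent that passed in opposite directions, and dashed lines the shares over all genes tested, 15.3% and 16.1%. Glycolysis and the respiratory chain lie at the top and mitosis at the bottom, while the SRF targets have the highest share of opposite changes.

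Genes of cell division fell in both lines. Of 51 genes of mitosis and chromosome segregation 0 rose in both lines, 33 fell in both and 5 passed in opposite directions, and the median was -0.90 (-1.24 in A549 and -0.64 in MDA-MB-231). Their summed CPM was 7742 to 8182 in flat and 3484 to 3867 in Matrigel A549, and 12336 to 12596 in flat and 8610.0 to 9141 in Matrigel MDA-MB-231. CENPE, the kinetochore motor, read 98.5, 94.9 and 83.8 CPM in flat A549, 27.2, 32.8 and 27.3 in Matrigel A549, 248, 242 and 266 in flat MDA-MB-231 and 88.9, 86 and 86.1 in Matrigel MDA-MB-231. The groups did not overlap, the changes were -1.69 in A549 and -1.53 in MDA-MB-231, and the average was -1.61 ± 0.06 (adjusted p = 1.7e-12). PLK4, the kinase of centriole duplication, fell by an average of 1.66 on the log2 scale, SGO1, the protector of centromeric cohesion, by 1.51 and ANLN (anillin), of the cytokinetic ring, by 1.23. The list was not uniform: CDC20, an activator of the anaphase-promoting complex, fell in A549 (-1.71) and rose in MDA-MB-231 (0.52). No member rose in both lines by edgeR; at an unadjusted p under 0.05 and with DESeq2 1 did, the proliferation antigen MKI67, whose average was 0.37 ± 0.12 with adjusted p of 0.0654 and 0.0528 in the lines. With the GC and length trend removed the list had 0 rises and 30 falls.

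The promoters of these genes were searched, on both strands of the 300 bases around the transcript start, for TTTGAA, the core of the cell cycle homology region through which the DREAM complex and B-MYB control late cell cycle genes, and for the CCAAT box that binds NF-Y. RefSeq promoters (GRCh38.p14) matched 11390 of the 15304 genes by symbol (74.4%). TTTGAA, or TTCAAA on the other strand, stood in 30 of 43 promoters of the mitosis list (69.8%), in 9.99% of all matched promoters, in 13.4% of those of genes that fell in both lines and in 5.80% of those that rose. CCAAT stood in 79.1% of the list and 36.4% of all. A match describes the letters and not a bound site. TTTGAA is rich in A and T, and transcripts of shared falls had a lower median GC content than those of shared rises, 42.3% against 56.7%. The part of base composition in the motif shares was not tested. In the DNA replication list TTTGAA stood in 1 of 40 promoters (2.5%). The 200 bases before the start are shown for the 2 members with a match there and the smallest p of the average, with the matches, close to the start, in capitals: ANLN at chr7:36389662-36389861 (+ strand) and HMMR, the hyaluronan-binding spindle protein, at chr5:163460432-163460631 (+ strand). HMMR averaged -1.68 ± 0.08 (adjusted p = 9.5e-12).
ANLN: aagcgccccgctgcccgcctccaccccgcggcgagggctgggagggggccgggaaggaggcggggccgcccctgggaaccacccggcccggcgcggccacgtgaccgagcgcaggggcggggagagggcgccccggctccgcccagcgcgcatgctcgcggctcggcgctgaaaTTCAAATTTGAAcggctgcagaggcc
HMMR: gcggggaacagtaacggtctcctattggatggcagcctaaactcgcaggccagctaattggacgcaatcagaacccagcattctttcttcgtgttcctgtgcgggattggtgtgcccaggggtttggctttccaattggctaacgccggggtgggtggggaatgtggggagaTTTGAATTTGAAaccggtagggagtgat

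Genes of DNA replication, of cohesin and condensin and of DNA repair also fell in both lines more often than they rose in both. In MDA-MB-231 by itself 11 replication genes rose and 21 fell. Of 48 genes of DNA replication, 0 rose in both lines, 21 fell in both and 10 passed in opposite directions, with a median of -0.50 (-0.93 in A549 and -0.19 in MDA-MB-231). CDC6 and ORC6, which load the replicative helicase, averaged -1.13 and -1.35, RFC3, a subunit of the clamp loader, -1.32, and CLSPN (claspin), of the replication checkpoint, -1.54. GINS4, a helicase subunit, passed in opposite directions, -1.87 in A549 and 0.48 in MDA-MB-231. Of 18 cohesin and condensin genes 0 rose in both lines, 9 fell in both and 3 passed in opposite directions. SMC4, a condensin ATPase, read 265, 257 and 239.7 CPM in flat A549, 115, 123 and 85.9 in Matrigel A549, 435, 426 and 446 in flat MDA-MB-231 and 174, 157 and 167 in Matrigel MDA-MB-231, each Matrigel library under each flat one, for an average of -1.32 ± 0.07 (adjusted p = 1.0e-10); SMC2, NCAPG and NCAPG2, of the same complexes, averaged -1.04, -1.21 and -1.04, and NCAPH2, a condensin II subunit, passed in opposite directions, -0.84 in A549 and 0.94 in MDA-MB-231. Of 31 genes of homologous recombination and the Fanconi pathway 1 rose in both lines, 18 fell in both and 1 passed in opposite directions, with a median of -0.80 (-0.68 in A549 and -0.84 in MDA-MB-231). XRCC2, which acts in strand exchange, averaged -1.97 ± 0.08 (adjusted p = 4.5e-12), the helicase BRIP1 -1.16 and the anchor protein FANCM -1.28; FANCG, of the Fanconi core complex, passed in opposite directions, -0.81 in A549 and 0.37 in MDA-MB-231. In the same order, the lists had without the GC and length trend 0 rises and 22 falls, 1 rise and 3 falls, and 1 rise and 19 falls. Over all 15304 genes tested there were 2259 rises and 1965 falls without the trend. SMC2 was not called then.

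Regulators of entry into the cycle were mixed, as were all genes tested (15.3% rises, 16.1% falls and 14.3% opposite changes). Of 16 cyclin-dependent kinase inhibitors, G1 cyclins and related genes 3 rose in both lines, 4 fell in both and 3 passed in opposite directions, with 1 rise and 4 falls without the GC and length trend: CDK2, the S phase kinase, averaged -1.04, the transcription factor E2F3 -0.82 and the pocket protein RBL1 -0.82, whereas the cyclin CCND3 averaged 1.01. RBL2, another pocket protein, passed in opposite directions, 0.37 in A549 and -1.18 in MDA-MB-231. Among 25 genes known to be induced by DNA damage 5 rose in both lines, 0 fell in both and 7 passed in opposite directions. Without the GC and length trend there were 5 rises and 2 falls, and on log2(TPM + 1) 2 rises and 10 falls. On that last scale 625 of all 15304 genes tested rose and 5100 fell in both lines. CDKN1A, the cyclin-dependent kinase inhibitor p21, read 69.7, 73.5 and 78.6 CPM in flat A549, 206, 128 and 250.0 in Matrigel A549, 61.6, 71.8 and 61.6 in flat MDA-MB-231 and 157, 159 and 162 in Matrigel MDA-MB-231. Flat and Matrigel libraries were apart in both lines, the changes were 1.41 in A549 and 1.30 in MDA-MB-231, and the average was 1.35 ± 0.12 (adjusted p = 1.9e-07). BBC3 (PUMA), which promotes apoptosis, averaged 1.96, SESN2, a stress-induced inhibitor of mTORC1, 1.27 and FDXR, a mitochondrial reductase, 1.16. The list median was 0.02 (0.23 in A549 and 0.02 in MDA-MB-231), near that of all genes, and it changed sign in 8 of the alternatives. CCND3 lost the shared call without the GC and length trend and on log2(TPM + 1), and SESN2 and FDXR on log2(TPM + 1).

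Genes of energy metabolism rose in both lines. Of 22 genes of glycolysis and glucose transport 16 rose in both lines, 0 fell in both and 2 passed in opposite directions, with a median of 1.00 (0.83 in A549 and 1.15 in MDA-MB-231). ALDOA, the aldolase, read 871, 841 and 899 CPM in flat A549, 1632, 1575 and 1666 in Matrigel A549, 502, 539 and 481 in flat MDA-MB-231 and 1446, 1461 and 1532 in Matrigel MDA-MB-231. Its Matrigel libraries lay above the flat ones throughout, and the average was 1.22 ± 0.05 (adjusted p = 3.0e-12). SLC16A3, the lactate exporter MCT4, read 38.6, 38.3 and 40.7 CPM in flat A549, 105, 135 and 124 in Matrigel A549, 172, 153 and 144 in flat MDA-MB-231 and 535, 505 and 546 in Matrigel MDA-MB-231, with changes of 1.63 in A549 and 1.75 in MDA-MB-231. HK1 (hexokinase) averaged 1.58 and GPI, which makes fructose 6-phosphate, 1.11. PFKP, a phosphofructokinase, passed in opposite directions, -1.48 in A549 and 1.37 in MDA-MB-231. Without the GC and length trend the list had 15 rises and 0 falls.

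Several known hypoxia-induced genes rose as well: of 31, 13 rose in both lines, 1 fell in both and 7 passed in opposite directions, with a median of 0.70 (0.77 in A549 and 0.65 in MDA-MB-231). DDIT4 (REDD1), an inhibitor of mTORC1, read 101, 95.9 and 94.4 CPM in flat A549, 369, 448 and 369 in Matrigel A549, 34.1, 30.3 and 32.6 in flat MDA-MB-231 and 215, 205 and 214 in Matrigel MDA-MB-231, without overlap, and averaged 2.36 ± 0.06 (adjusted p = 2.9e-14). EGLN3, an oxygen-sensing prolyl hydroxylase, averaged 3.11 ± 0.11 (adjusted p = 3.3e-13), NDRG1 2.14 and the histone demethylase KDM4B 1.07. VEGFA, the angiogenic factor, passed in opposite directions, -0.90 in A549 and 1.93 in MDA-MB-231. The list had 15 rises and 0 falls without the GC and length trend. Of 22 genes of the tricarboxylic acid cycle 9 rose in both lines, 1 fell in both and 2 passed in opposite directions, with 9 rises and 0 falls without the trend. IDH3G, a subunit of isocitrate dehydrogenase, averaged 1.26 and the mitochondrial IDH2 0.89, while DLAT, of pyruvate dehydrogenase, averaged -0.60. SUCLA2, a subunit of succinyl-CoA synthetase, passed in opposite directions, 0.86 in A549 and -0.87 in MDA-MB-231.

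Of 41 nuclear-encoded respiratory chain genes 27 rose in both lines, 0 fell in both and 0 passed in opposite directions, with a median of 0.53 (0.46 in A549 and 0.64 in MDA-MB-231). NDUFA2, a complex I subunit, read 45.1, 40.6 and 44.6 CPM in flat A549, 78.5, 73.1 and 99.6 in Matrigel A549, 16.3, 16.8 and 16.2 in flat MDA-MB-231 and 36, 34.7 and 34 in Matrigel MDA-MB-231. The average was 1.02 ± 0.07 (adjusted p = 2.0e-09), and flat and Matrigel libraries did not overlap. NDUFA13 and NDUFS7, also of complex I, averaged 1.27 and 1.22 and COX5B, of cytochrome c oxidase, 0.85. This group moved with GC content: without the trend it had 14 rises and 2 falls and a median of 0.18, and NDUFA13, NDUFS7 and COX5B lost the shared call. Of 28 genes of fatty acid oxidation and the peroxisome 15 rose in both lines, 0 fell in both and 4 passed in opposite directions, with a median of 0.59 (0.74 in A549 and 0.43 in MDA-MB-231). ETFB, which passes electrons from fatty acid oxidation to the chain, averaged 1.73 ± 0.06 (adjusted p = 6.1e-13), CPT1A, which brings fatty acids into mitochondria, 1.02, the short-chain dehydrogenase ACADS 1.51 and the peroxisomal ATPase PEX6 1.14. ANGPTL4, a secreted inhibitor of lipoprotein lipase, passed in opposite directions, -0.65 in A549 and 2.51 in MDA-MB-231. The list had 14 rises and 0 falls without the GC and length trend, ACADS not among them.

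Genes of cholesterol synthesis fell more often than they rose. Of 25 genes of cholesterol synthesis and uptake 2 rose in both lines, 9 fell in both and 6 passed in opposite directions, with 1 rise and 11 falls without the GC and length trend. HMGCS1 and SQLE, a pair of SREBP2-controlled synthesis enzymes, fell, from 164 ± 7.51 to 90.05 ± 8.04 CPM in A549 and 45.8 ± 1.12 to 24.7 ± 2.43 CPM in MDA-MB-231 for HMGCS1 and from 143 ± 4.24 to 73 ± 2.86 CPM in A549 and 23.3 ± 0.832 to 12 ± 1.37 CPM in MDA-MB-231 for SQLE, with averages of -0.88 and -0.97. STARD4, a sterol carrier, averaged -1.41, while TM7SF2, a sterol reductase, averaged 1.93. Of 15 genes of fatty acid synthesis 2 rose in both lines, 3 fell in both and 3 passed in opposite directions, with 3 rises and 3 falls without the trend. The shares in the main analysis were 13.3% rises and 20% falls, beside 15.3% and 16.1% over all genes tested. The desaturase FADS1 averaged -0.36, the acyltransferase GPAM -0.70 and ACSS2, which makes acetyl-CoA from acetate, 1.21. The elongase ELOVL6 averaged -0.40, and malic enzyme ME1 passed in opposite directions, 1.29 in A549 and -0.41 in MDA-MB-231. HMGCS1 lost the shared call without the GC and length trend. TXNIP, an arrestin that limits glucose uptake, rose from 0.0723 ± 0.0626 to 45.8 ± 7.29 CPM in A549 and 254 ± 12.7 to 381 ± 7.32 CPM in MDA-MB-231. Its log2 fold change differed widely between the lines, 9.14 in A549 and 0.59 in MDA-MB-231, and was tested as a difference of 8.55 ± 0.29 (adjusted p = 9.8e-13). Its relatives ARRDC2 and ARRDC3 averaged 0.55 and 0.77 and the glucose-sensing factor MLXIP 0.67, but ARRDC4 passed in opposite directions, 4.15 in A549 and -1.06 in MDA-MB-231. TXNIP, ARRDC2, ARRDC3 and MLXIP were not called in common on log2(TPM + 1), nor ARRDC2 without the GC and length trend. Of the 7 genes of this list 4 rose in both lines, 0 fell in both and 1 passed in opposite directions, with 3 rises and 0 falls without the trend.

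Antioxidant, detoxification and lysosomal genes shared the rise. Of 32 NRF2 targets 15 rose in both lines, 2 fell in both and 6 passed in opposite directions, with a median of 0.70 (0.80 in A549 and 0.49 in MDA-MB-231). FTL, the light chain of ferritin, read 4355, 4400.4 and 3803 CPM in flat A549, 11638, 9348 and 12991 in Matrigel A549, 673, 690.4 and 639.9 in flat MDA-MB-231 and 2269, 2199.9 and 2237 in Matrigel MDA-MB-231. The average was 1.59 ± 0.07 (adjusted p = 8.9e-12), with no overlap. FTH1, the ferritin heavy chain, averaged 1.43, the efflux pump ABCC3 1.58 and the epoxide hydrolase EPHX1 2.24. Of 29 efflux and detoxification genes 13 rose in both lines, 0 fell in both and 2 passed in opposite directions: the efflux pump ABCG2 averaged 1.26, the aldehyde dehydrogenase ALDH3B1 1.65 and the glutathione transferase GSTP1 1.16, and CYP1A1 passed in opposite directions, -0.75 in A549 and 2.13 in MDA-MB-231. ABCC3 belongs to both lists and FTL and FTH1 also to the 17 iron genes, of which 5 rose in both lines, 1 fell in both and 5 passed in opposite directions, with 5 rises and 0 falls without the trend. HFE, which controls hepcidin, averaged 0.79 and ACO1, the iron regulatory protein, 0.41, while the iron exporter SLC40A1 (ferroportin) passed in opposite directions, 2.82 in A549 and -0.34 in MDA-MB-231. Of 36 genes of lysosome and autophagy 20 rose in both lines, 1 fell in both and 5 passed in opposite directions, with a median of 0.62 (0.57 in A549 and 0.69 in MDA-MB-231). CTSD (cathepsin D), a lysosomal protease, read 121, 124 and 129 CPM in flat A549, 596, 408 and 693 in Matrigel A549, 274, 304 and 265 in flat MDA-MB-231 and 1198, 1106 and 1205 in Matrigel MDA-MB-231, a rise of 2.18 in A549 and 2.06 in MDA-MB-231 that averaged 2.12 ± 0.10 (adjusted p = 3.4e-11). The protease CTSS averaged 1.57, the sialidase NEU1 1.03 and WIPI1, of autophagosome formation, 1.46; ULK1, the kinase that starts autophagy, passed in opposite directions, -1.32 in A549 and 0.73 in MDA-MB-231. Without the GC and length trend the NRF2, detoxification and lysosome lists had 15 rises and 0 falls, 13 rises and 0 falls, and 22 rises and 1 fall; EPHX1 and GSTP1 lost the shared call.

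Genes that build ribosomes or move cargo through the nuclear pore fell more often than they rose. Of 45 genes of ribosome biogenesis 1 rose in both lines, 21 fell in both and 11 passed in opposite directions, with a median of -0.42 (-0.79 in A549 and -0.15 in MDA-MB-231). BRIX1, of large subunit assembly, read 66.6, 67.9 and 64.6 CPM in flat A549, 34.8, 40.8 and 34.4 in Matrigel A549, 132, 121 and 132 in flat MDA-MB-231 and 60.6, 55.7 and 53 in Matrigel MDA-MB-231, apart in both lines, and averaged -1.03 ± 0.06 (adjusted p = 1.7e-10). NOP58, part of the particles that methylate ribosomal RNA, averaged -1.10, WDR43 -0.85 and the helicase DDX52 -0.81. MYC, which drives such genes in many cells, passed in opposite directions, -1.17 in A549 and 0.52 in MDA-MB-231. Of 37 genes of the nuclear pore and nuclear import 1 rose in both lines, 17 fell in both and 8 passed in opposite directions. XPO1, the main exporter of proteins from the nucleus, read 635, 638 and 599 CPM in flat A549, 309, 379 and 268 in Matrigel A549, 588, 595 and 648 in flat MDA-MB-231 and 238, 174 and 179.6 in Matrigel MDA-MB-231. Its average was -1.30 ± 0.09 (adjusted p = 1.1e-09), with flat and Matrigel libraries apart. The nucleoporins NDC1, NUP153 and NUP50 averaged -1.34, -0.91 and -0.80, and NUP85 passed in opposite directions, -0.92 in A549 and 0.34 in MDA-MB-231. Of 41 splicing factors 3 rose in both lines, 15 fell in both and 9 passed in opposite directions; HNRNPH1 averaged -0.89, SRSF3 -0.84, SRSF2 -0.81 and HNRNPR -0.84, and SNRPB, a core snRNP protein, passed in opposite directions, -0.41 in A549 and 0.58 in MDA-MB-231. These lists moved with GC content in part: without the trend they had 0 rises and 11 falls, 2 rises and 9 falls, and 4 rises and 11 falls, and NOP58, WDR43, DDX52 and HNRNPR lost the shared call.

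Ribosomal protein genes themselves went up in the main analysis. Of 55 cytosolic ribosomal protein genes 25 rose in both lines, 0 fell in both and 9 passed in opposite directions, and the median was 0.45 (0.17 in A549 and 0.77 in MDA-MB-231). RPS28 averaged 1.04, RPS19 1.01, RPS9 0.89 and RPL13 0.79, while RPS2 passed in opposite directions, -0.42 in A549 and 1.19 in MDA-MB-231. Without the GC and length trend the list had 7 rises and 0 falls and a median of 0.02, beside 2259 rises and 1965 falls over all 15304 genes tested. On log2(TPM + 1) it had 0 rises and 3 falls, beside 625 rises and 5100 falls over all 15304 genes tested. RPS28, RPS19, RPS9 and RPL13 were not called in common on log2(TPM + 1), and RPS9, RPS19 and RPS28 also not without the trend. Reads can be shared with ribosomal protein pseudogenes, so the values are uncertain. Of 28 heat shock proteins and chaperones 2 rose in both lines, 11 fell in both and 4 passed in opposite directions. HSPH1, of the HSP110 family, averaged -0.99 ± 0.05 (adjusted p = 4.4e-11), its relative HSPA4L -0.71 and CCT2, of the chaperonin that folds actin and tubulin, -0.62, while the small heat shock protein HSPB1 averaged 1.41 and HSPB8, of the same family, passed in opposite directions, 0.49 in A549 and -1.92 in MDA-MB-231. The list had 1 rise and 2 falls without the GC and length trend, where HSPA4L and CCT2 were not called. Among 29 genes of transport kinesins, tubulins and augmin 2 rose in both lines, 6 fell in both and 9 passed in opposite directions, with 2 rises and 7 falls without the trend; HAUS2, HAUS3 and HAUS6, of the augmin complex that branches spindle microtubules, averaged -1.01, -1.53 and -1.48 and the motor KIF13B 1.43. TUBB3, a beta tubulin, passed in opposite directions, -2.05 in A549 and 1.07 in MDA-MB-231. Of 12 genes of the lamina and its linkers 3 rose in both lines, 4 fell in both and 2 passed in opposite directions, with 2 rises and 3 falls without the trend: LMNA, the A-type lamin, averaged 1.18, the linker SYNE2 1.94, LBR, the lamin B receptor, -1.07 and SUN1 -0.62. BANF1, which binds chromatin to the lamina, passed in opposite directions, -0.32 in A549 and 0.69 in MDA-MB-231.

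Targets of YAP and TAZ fell more often than they rose. Of 33, 3 rose in both lines, 13 fell in both and 7 passed in opposite directions, with a median of -0.80 (-0.89 in A549 and -0.34 in MDA-MB-231) and, without the GC and length trend, 3 rises and 15 falls. CRIM1, a membrane protein that binds BMPs, read 668, 669 and 665 CPM in flat A549, 171, 247 and 217 in Matrigel A549, 643, 639 and 632 in flat MDA-MB-231 and 221, 228 and 229.6 in Matrigel MDA-MB-231. The libraries did not overlap, the changes were -1.66 in A549 and -1.50 in MDA-MB-231, and the average was -1.58 ± 0.07 (adjusted p = 6.8e-12). TGFB2, a TGF-beta ligand, averaged -1.85 and the kinase NUAK1 -1.20, while IGFBP3, which binds insulin-like growth factors, averaged 1.54 but lost the shared call without the trend. AJUBA, a LIM protein of the Hippo pathway, passed in opposite directions, -2.83 in A549 and 0.37 in MDA-MB-231. SRF targets and contractile actin genes did not share a direction. Of 36, 2 rose in both lines, 9 fell in both and 22 passed in opposite directions, with 3 rises and 8 falls without the GC and length trend, the median being -0.79 in A549 and 0.35 in MDA-MB-231. Besides TAGLN, shared falls were seen in TPM1, a tropomyosin, with -1.81 ± 0.05 (adjusted p = 4.7e-14), in FHL1, a LIM protein of muscle, with -1.63, and in FERMT2 (kindlin 2), which activates integrins, with -1.03. TPM1 read 1124, 1214 and 1134 CPM in flat A549, 160.5, 179 and 178 in Matrigel A549, 102, 107 and 108 in flat MDA-MB-231 and 56.7, 58.3 and 58.2 in Matrigel MDA-MB-231. ACTG1, cytoplasmic gamma actin, went -0.77 in A549 and 1.15 in MDA-MB-231.

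**Figure D5:**
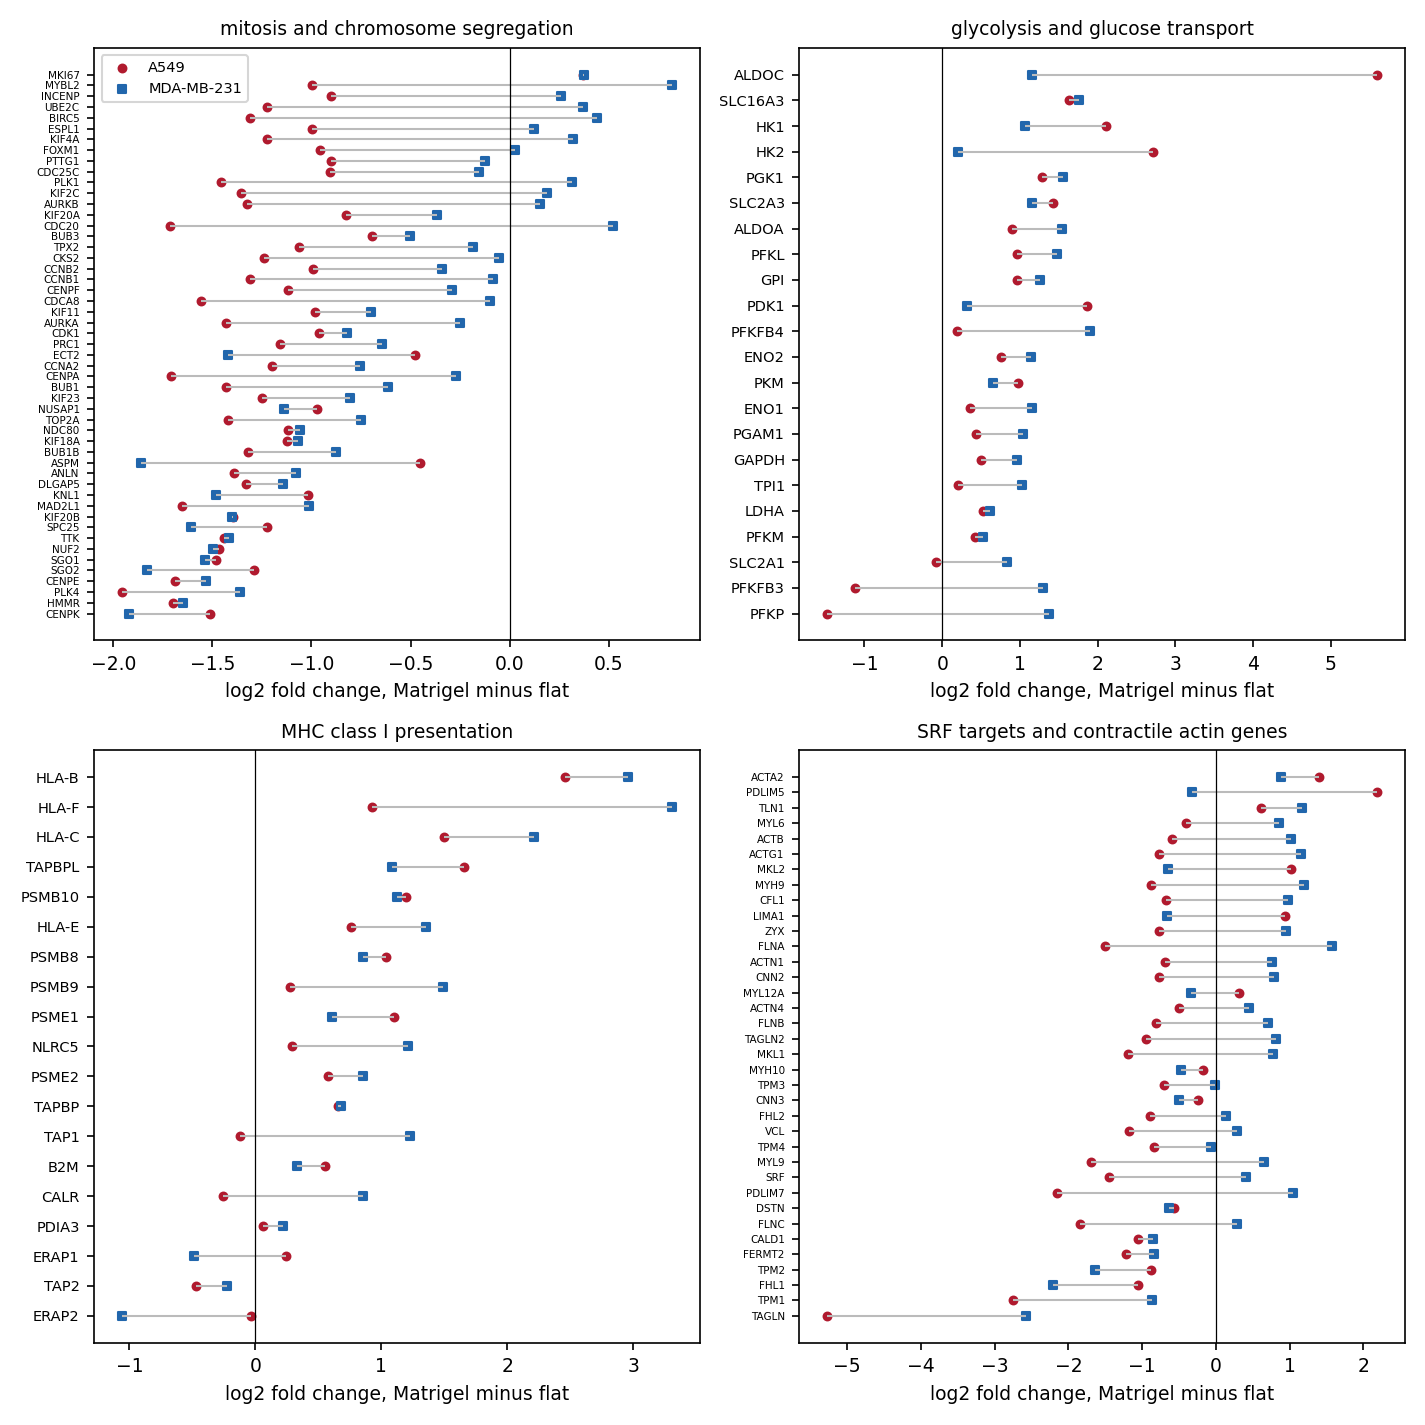
Each line joins the log2 fold changes (Matrigel minus flat, x axis) of 1 gene in A549 and MDA-MB-231, for tested members of 4 lists. In mitosis, glycolysis and MHC class I presentation most genes lie on the same side of 0 in both lines, whereas 22 of 36 SRF targets and contractile actin genes passed on opposite sides.

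Genes of adhesion and matrix were mixed as well, beside 15.3% rises, 16.1% falls and 14.3% opposite changes over all genes tested. Single members changed a great deal. Of 32 genes of focal adhesion and small GTPase signalling 3 rose in both lines, 9 fell in both and 6 passed in opposite directions, with 6 rises and 8 falls without the GC and length trend: RND3, an antagonist of RhoA, averaged -1.22 and the formin DIAPH3 -1.22, while the kinase SRC averaged 1.32 and ARHGEF2, an activator of RhoA, 0.98. RHOB, a small GTPase, passed in opposite directions, -1.01 in A549 and 1.20 in MDA-MB-231. Of 28 integrins and matrix receptors 6 rose in both lines, 3 fell in both and 6 passed in opposite directions, with 5 rises and 3 falls without the trend. ITGB4, the laminin-binding integrin subunit of hemidesmosomes, went from 31.5 ± 0.439 to 135 ± 24.4 CPM in A549 and 54.5 ± 6.1 to 137 ± 5.29 CPM in MDA-MB-231 and averaged 1.73 ± 0.08 (adjusted p = 1.1e-11). ITGB8, which activates TGF-beta, averaged 2.37, the hyaluronan receptor CD44 1.11 and the collagen receptor DDR1 1.00, whereas ITGA5, of the fibronectin receptor, passed in opposite directions, -0.66 in A549 and 1.20 in MDA-MB-231.

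Of 28 basement membrane genes 3 rose in both lines, 3 fell in both and 7 passed in opposite directions, with 2 rises and 4 falls without the GC and length trend. COL4A2, the partner chain of COL4A1, read 315, 326 and 342 CPM in flat A549, 14.9, 12.3 and 24.6 in Matrigel A549, 196, 184 and 174 in flat MDA-MB-231 and 94.1, 98 and 105 in Matrigel MDA-MB-231. It averaged -2.52 ± 0.11 (adjusted p = 1.5e-11), with each Matrigel library under each flat one. LAMA3, a chain of the laminin of hemidesmosomes, fell in A549 and rose in MDA-MB-231, -3.11 in A549 and 1.10 in MDA-MB-231. COL4A5 averaged 1.26, a call lost on log2(TPM + 1). Of 34 genes of the interstitial matrix 3 rose in both lines, 6 fell in both and 9 passed in opposite directions, with 2 rises and 7 falls without the trend. COL7A1, the anchoring fibril collagen, averaged -2.81 ± 0.09 (adjusted p = 1.9e-13) and the fibulin EFEMP1 -1.37, while FN1 (fibronectin) averaged 2.57 ± 0.09 (adjusted p = 3.0e-13) and COL17A1, a hemidesmosome collagen, 1.98. FN1 went from 166 ± 5.79 to 3800.4 ± 845 CPM in A549 and 499.8 ± 21 to 772 ± 58.2 CPM in MDA-MB-231, and its shared call was lost on log2(TPM + 1). COL5A1 passed in opposite directions, -5.52 in A549 and 1.12 in MDA-MB-231.

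Single epithelial genes rose in both lines, but the junction genes as a list did not share a direction. JUP (plakoglobin), of desmosomes and adherens junctions, read 121, 110.1 and 134 CPM in flat A549, 652, 385 and 498 in Matrigel A549, 35.9, 39.2 and 31.3 in flat MDA-MB-231 and 166, 175 and 182 in Matrigel MDA-MB-231. Its rise of 2.07 in A549 and 2.30 in MDA-MB-231 averaged 2.19 ± 0.11 (adjusted p = 8.4e-11), with the libraries apart. CLDN7 and CLDN4, of tight junctions, averaged 2.28 and 1.85, but CLDN1, of the same family, averaged -1.25. Of the 33 junction genes 8 rose in both lines, 2 fell in both and 7 passed in opposite directions, shares of 24.2% rises and 6.06% falls, with 7 rises and 2 falls without the GC and length trend. Their median was 1.11 in A549 and -0.65 in MDA-MB-231, where 9 rose and 17 fell. LLGL2, a polarity protein, passed in opposite directions, 1.76 in A549 and -2.51 in MDA-MB-231. Of 11 keratins 5 rose in both lines, 1 fell in both and 3 passed in opposite directions, with 3 rises and 3 falls without the GC and length trend. KRT19, a simple-epithelium keratin, went from 43.1 ± 2.08 to 381 ± 61.7 CPM in A549 and 114 ± 3.91 to 522 ± 32.3 CPM in MDA-MB-231 and averaged 2.67 ± 0.07 (adjusted p = 4.7e-14), and KRT15 averaged 2.38. KRT8 and KRT18 averaged 1.20 and 1.04, calls that were lost without the GC and length trend and on log2(TPM + 1), and KRT80 passed in opposite directions, -3.16 in A549 and 1.29 in MDA-MB-231. Of 18 genes of mesenchymal transition 1 rose in both lines, 3 fell in both and 9 passed in opposite directions, with 1 rise and 2 falls without the trend. The shares in the main analysis were 5.56% rises and 16.7% falls, beside 15.3% and 16.1% over all genes tested. CDH2 (N-cadherin) averaged -1.79, the repressors SNAI2 and ZEB2 -1.69 and -0.44, and the calcium-binding S100A4 1.31; AXL, a receptor tyrosine kinase, passed in opposite directions, -2.03 in A549 and 0.75 in MDA-MB-231.

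Many genes of MHC class I presentation rose in both lines. Of 20 genes of MHC class I presentation 12 rose in both lines, 0 fell in both and 2 passed in opposite directions, with a median of 0.80 (0.62 in A549 and 0.97 in MDA-MB-231). HLA-C, a class I heavy chain, read 18.8, 19.2 and 18.9 CPM in flat A549, 52.3, 43.6 and 62.5 in Matrigel A549, 105, 115 and 105 in flat MDA-MB-231 and 523, 485 and 502 in Matrigel MDA-MB-231. The average was 1.86 ± 0.07 (adjusted p = 1.8e-12), with no overlap in either line. The non-classical HLA-E averaged 1.06 and HLA-F 2.12, and PSMB10, an immunoproteasome subunit, 1.16 ± 0.09 (adjusted p = 6.5e-09). The shared call of HLA-F was lost without Matrigel A549 replicate 3. HLA genes are alike and vary between people, so counts against 1 reference are uncertain for each of them. CALR, a chaperone of class I assembly, passed in opposite directions, -0.26 in A549 and 0.86 in MDA-MB-231. Without the GC and length trend the list had 10 rises and 1 fall. Of 16 class II genes 3 rose in both lines, 0 fell in both and 1 passed in opposite directions, with 2 rises and 0 falls without the trend. The 18.8% of rises was near the 15.3% of all genes: in MDA-MB-231 14 members rose, with a median of 3.25, and in A549 3, with a median of 0.00. HLA-DMA, partner of HLA-DMB, averaged 3.18 ± 0.08 (adjusted p = 1.3e-14) and RFXANK, a subunit of the RFX complex that controls class II promoters, 0.77, and RFX5, another subunit, passed in opposite directions, -0.55 in A549 and 0.26 in MDA-MB-231. Of the 7 leukocyte markers given above, CD14, CD68 and LYZ rose in both lines with these genes, while PTPRC, CD3E and TYROBP did not and CD74 went from 6 to 2 counts in A549 and from 10688 to 62453 in MDA-MB-231; the part of leukocytes in the result was not tested.

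Of 47 interferon-stimulated genes 15 rose in both lines, 2 fell in both and 7 passed in opposite directions. The median was 2.40 in A549 and 0.01 in MDA-MB-231, above that of all genes in A549 and close to it in MDA-MB-231, and the difference between these medians was not tested. IFITM3, which blocks virus entry, read 3.32, 2.55 and 2.53 CPM in flat A549, 15.2, 15.2 and 22.6 in Matrigel A549, 81, 101 and 83.9 in flat MDA-MB-231 and 229, 251 and 246 in Matrigel MDA-MB-231. Its average was 2.09 ± 0.11 (adjusted p = 3.7e-11), apart in both lines. The related IFITM2 averaged 1.71, the exonuclease ISG20 1.68 and the GTPase GBP2 1.24; GBP3, another GTPase, passed in opposite directions, 2.42 in A549 and -0.65 in MDA-MB-231. IFITM2 and IFITM3 are near-identical, so reads may be split between them. Without the GC and length trend the list had 14 rises and 0 falls, with IFITM2 and ISG20 no longer called. Promoters were searched for GAAA followed after any 2 bases by GAAA (TTTC and TTTC on the other strand), the core of the element bound by interferon regulatory factors. It stood in 22 of 35 promoters of the interferon list (62.9%), in 9 of 16 of the MHC class I list (56.3%), in 2.98% of all matched promoters and in 3.01% of those of genes that rose in both lines. The 200 bases before the start are shown, with the matches in capitals, for 4 members that rose in both lines, the 2 of each list with a match and the smallest p of the average: HLA-F at chr6:29723234-29723433 (+ strand), PSMB10 at chr16:67936851-67937050 (− strand), IFITM3 at chr11:320861-321060 (− strand) and ISG20 at chr15:88638816-88639015 (+ strand) (GRCh38.p14).
HLA-F: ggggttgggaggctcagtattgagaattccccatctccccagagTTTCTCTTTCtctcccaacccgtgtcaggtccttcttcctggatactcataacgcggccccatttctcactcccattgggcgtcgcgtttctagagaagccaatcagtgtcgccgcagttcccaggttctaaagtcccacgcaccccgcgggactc
PSMB10: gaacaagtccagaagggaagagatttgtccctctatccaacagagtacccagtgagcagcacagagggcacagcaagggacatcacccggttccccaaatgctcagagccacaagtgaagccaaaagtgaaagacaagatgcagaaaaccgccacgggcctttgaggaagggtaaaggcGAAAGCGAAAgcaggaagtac
IFITM3: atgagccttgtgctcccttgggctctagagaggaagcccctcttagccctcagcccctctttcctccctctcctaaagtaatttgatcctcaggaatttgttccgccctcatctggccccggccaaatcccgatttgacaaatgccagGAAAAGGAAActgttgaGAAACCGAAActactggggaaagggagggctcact
ISG20: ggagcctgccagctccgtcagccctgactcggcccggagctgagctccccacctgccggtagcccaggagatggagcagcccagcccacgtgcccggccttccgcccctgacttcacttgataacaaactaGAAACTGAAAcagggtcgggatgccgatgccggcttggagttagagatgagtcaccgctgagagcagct

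Of 25 complement and acute phase genes 9 rose in both lines, 1 fell in both and 3 passed in opposite directions, with a median of 1.57 (2.85 in A549 and 0.36 in MDA-MB-231) and, without the GC and length trend, 9 rises and 1 fall. LCN2 (lipocalin 2), which starves bacteria of iron, read 0.276, 0.106 and 0.169 CPM in flat A549, 27, 17.4 and 28.7 in Matrigel A549, 13.9, 15.3 and 12.9 in flat MDA-MB-231 and 63.7, 89.4 and 79.9 in Matrigel MDA-MB-231. The average was 4.76 ± 0.17 (adjusted p = 6.8e-13), and the difference between the lines 4.58 ± 0.42 (adjusted p = 1.2e-07). SERPINA1, alpha-1 antitrypsin, averaged 4.49 ± 0.13 (adjusted p = 5.8e-14) and CFB, complement factor B, 3.07 ± 0.10 (adjusted p = 2.4e-13). Of 21 mucin and secretory genes 9 rose in both lines, 0 fell in both and 3 passed in opposite directions, with a median of 3.36 (6.49 in A549 and 0.43 in MDA-MB-231) and, without the trend, 5 rises and 0 falls. Besides MUC5B and LCN2, SPDEF, a transcription factor of goblet cells, averaged 2.67 ± 0.08 (adjusted p = 7.1e-14) and AGR2, which helps mucins fold, 2.07; AGR2 was not called in common on log2(TPM + 1). CEACAM1, an adhesion molecule of epithelia, passed in opposite directions, 7.86 in A549 and -1.84 in MDA-MB-231. In the list of NF-kB targets with cytokines and chemokines, 38 genes were tested and 8 rose in both lines, 2 fell in both and 10 passed in opposite directions, with 9 rises and 4 falls without the trend: PTGS2 (cyclooxygenase 2) averaged 2.99 ± 0.09 (adjusted p = 7.1e-14), the neutrophil attractant CXCL1 2.18 ± 0.09 (adjusted p = 2.8e-12), the death ligand TNFSF10 (TRAIL) 2.87 and TNIP1, an inhibitor of the pathway, 0.97. TNFSF10 and TNIP1 lost the shared call on log2(TPM + 1), and IL11 passed in opposite directions, -6.96 in A549 and 0.21 in MDA-MB-231.

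Signalling genes split within each pathway, as did all genes tested, with 15.3% rises, 16.1% falls and 14.3% opposite changes. Rises were 34.6% of the MAP kinase list, 6.67% of the EGF receptor list and 14.3% of the immediate-early list. They were 11.5% of the TGF-beta list, 13.8% of the Wnt list and 17.4% of the Notch list, so a split is not particular to these pathways. Of 26 MAP kinase feedback genes 9 rose in both lines, 2 fell in both and 7 passed in opposite directions, with 7 rises and 2 falls without the GC and length trend: ETV4, an ETS factor, averaged 1.86 ± 0.09 (adjusted p = 1.6e-11), while DUSP1, a phosphatase of MAP kinases, averaged -2.06 ± 0.06 (adjusted p = 4.7e-14). TGFA and EREG, both ligands of the EGF receptor, moved apart, with 1.12 for TGFA and -2.22 for EREG, and AREG, another ligand, passed in opposite directions, -2.91 in A549 and 0.57 in MDA-MB-231. Of the 15 genes of that receptor family 1 rose in both lines, 3 fell in both and 5 passed in opposite directions, with 2 rises and 2 falls without the trend. EGFR itself averaged -0.59 and the ligand NRG1 -0.31, while the receptor ERBB3 passed in opposite directions, 3.72 in A549 and -0.43 in MDA-MB-231. EREG lost the shared call without the GC and length trend. Of 28 immediate-early genes 4 rose in both lines, 2 fell in both and 10 passed in opposite directions, with 4 rises and 2 falls without the trend; FOS averaged 2.47, KLF2 1.47, KLF6 -0.86 and BTG1, which slows proliferation, 0.91, and JUN passed in opposite directions, -3.51 in A549 and 0.24 in MDA-MB-231. Of 26 genes of the TGF-beta pathway 3 rose in both lines, 7 fell in both and 5 passed in opposite directions, with 1 rise and 4 falls without the trend; ID1, an inhibitor of differentiation induced by BMP, averaged 1.98, the receptor TGFBR2 0.88 and the ubiquitin ligase SMURF2 -0.87. PMEPA1, an inhibitor of the pathway, passed in opposite directions, -4.41 in A549 and 0.37 in MDA-MB-231. Of 29 Wnt genes 4 rose in both lines, 2 fell in both and 7 passed in opposite directions, with 4 rises and 1 fall without the trend, among them RNF43, which removes Wnt receptors, at 2.87, the receptors FZD7 and FZD1 at 1.04 and 0.91 and the ligand WNT3 at -1.16; FZD2 passed in opposite directions, -2.76 in A549 and 0.73 in MDA-MB-231. Of 23 Notch genes 4 rose in both lines, 3 fell in both and 4 passed in opposite directions, with 3 rises and 5 falls without the trend, among them the ligand JAG1 at -1.08, HES4, a bHLH repressor, at 2.00, RFNG, a glycosyltransferase of Notch receptors, at 0.92 and RBPJ, the DNA-binding partner of Notch, at -0.56; HES1, another repressor, passed in opposite directions, 1.40 in A549 and -0.79 in MDA-MB-231.

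Shared changes among genes of the secretory pathway were rises in the main analysis but mostly falls on log2(TPM + 1). Falls also outnumbered rises over all 15304 genes tested on that scale, with 625 rises and 5100 falls in both lines. In the main analysis all genes tested had 15.3% rises, 16.1% falls and 14.3% opposite changes. Near that share of rises were the lists of ATF4 (14.3%), collagen processing (16.7%) and matrix proteases (12.5%). Rises were 29.6% of the unfolded protein response list and 26.9% of the glycosylation list. They were 21.6% of the proteasome list and 22% of the mitochondrial ribosomal list. The unfolded protein response had 27 tested genes, of which 8 rose in both lines, 0 fell in both and 8 passed in opposite directions, with 9 rises and 0 falls without the GC and length trend and 2 rises and 5 falls on log2(TPM + 1), where the list median was 0.04 relative to all genes; XBP1, its transcription factor, averaged 1.75 ± 0.08 (adjusted p = 5.9e-12), CRELD2 1.21, SEC24D, of transport vesicles, 0.93 and EDEM2, which trims misfolded glycoproteins, 0.72, and PDIA4, a disulfide isomerase, passed in opposite directions, -0.45 in A549 and 1.00 in MDA-MB-231. Of 26 genes of glycosylation in the endoplasmic reticulum 7 rose in both lines, 0 fell in both and 2 passed in opposite directions, with 8 rises and 0 falls without the trend and 1 rise and 6 falls on log2(TPM + 1). MPI, which makes mannose 6-phosphate, averaged 1.00, ALG3 0.89, DPM3, of dolichol phosphate mannose synthesis, 0.99 and OST4, of the oligosaccharyltransferase, 0.64, and the catalytic STT3B passed in opposite directions, 0.37 in A549 and -0.89 in MDA-MB-231. Of 35 genes of ATF4 and amino acid supply 5 rose in both lines, 3 fell in both and 13 passed in opposite directions, with 5 rises and 1 fall without the trend; the rises fell from 5 to 3 without any 1 of the flat A549 libraries or without Matrigel A549 replicate 1. SLC7A11, the cystine importer, averaged -0.96 and the transcription factor CEBPB 0.81, and SLC7A11's partner SLC3A2 passed in opposite directions, -1.75 in A549 and 0.87 in MDA-MB-231. Of 37 proteasome subunits 8 rose in both lines, 4 fell in both and 5 passed in opposite directions, and 6 rises and 2 falls without the GC and length trend, with PSMC4, an ATPase of the cap, at 1.02, the activator PSME1 at 0.85 and the core subunit PSMA4 at -0.63; PSMC3, another ATPase, passed in opposite directions, -0.38 in A549 and 0.61 in MDA-MB-231. Of 41 mitochondrial ribosomal proteins 9 rose in both lines, 4 fell in both and 3 passed in opposite directions, and 3 rises and 2 falls without the trend, with MRPL41 at 1.20, which turned to -0.15 without it, MRPS26 at 0.66, MRPL4 at 0.70 and MRPL1 at -0.85, and MRPL14 in opposite directions, -0.39 in A549 and 0.64 in MDA-MB-231. These counts rested on A549 libraries: the list had 5 rises without flat replicate 3, 4 rises and 7 falls without Matrigel replicate 3, and 8 falls without Matrigel replicate 2. Of 24 collagen-processing enzymes 4 rose in both lines, 2 fell in both and 8 passed in opposite directions, with 4 rises and 1 fall without the trend. Among them were LOXL4, a lysyl oxidase, at 1.51, CRTAP, of the prolyl 3-hydroxylase complex, at 0.58, the prolyl hydroxylase subunit P4HA3 at -1.48, P4HB, a subunit of prolyl hydroxylase, at 0.93 and LOXL2 in opposite directions, -2.28 in A549 and 1.17 in MDA-MB-231. Of 32 matrix proteases and inhibitors 4 rose in both lines, 2 fell in both and 10 passed in opposite directions, with 4 rises and 0 falls without the trend. The inhibitor TIMP1 averaged 1.39, the protease ADAMTS9 2.06 and ADAM15 and ADAM17, both sheddases, 1.25 and -0.52.

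S100A6, a calcium-binding protein, read 643, 676 and 650.1 CPM in flat A549, 1838, 2432 and 2093 in Matrigel A549, 622, 569.7 and 691 in flat MDA-MB-231 and 2547, 2407 and 2529 in Matrigel MDA-MB-231. Its changes were 1.69 in A549 and 1.99 in MDA-MB-231, without overlap, and averaged 1.84 ± 0.07 (adjusted p = 1.1e-12). The list counts that follow stand beside 15.3% rises, 16.1% falls and 14.3% opposite changes over all genes tested. Of the 11 genes of the S100 list 5 rose in both lines, 1 fell in both and 2 passed in opposite directions. Without the GC and length trend 2 rises and 1 fall were found. The fall was S100PBP, which binds S100P and is not itself an S100 protein, at -0.79. S100A13 averaged 1.01, and S100A16 passed in opposite directions, -0.44 in A549 and 1.56 in MDA-MB-231. Of 33 chromatin writers and readers 12 rose in both lines, 8 fell in both and 2 passed in opposite directions, with 16 rises and 5 falls without the trend: the histone deacetylase HDAC5 averaged 1.42, the H3K27 methyltransferase EZH2 -1.04, the H3K4 methyltransferase KMT2C 1.13 and the H3K4 demethylase KDM5B 0.70. SMARCA4, the ATPase of SWI/SNF, passed in opposite directions, -0.95 in A549 and 0.77 in MDA-MB-231. Of 23 replication-dependent histone genes 7 rose in both lines, 0 fell in both and 1 passed in opposite directions. Without the trend the list had 1 rise and 4 falls and a median of -0.16. Its summed CPM was higher in Matrigel in A549, 5270 to 6353 against 4065 to 4189 in flat culture. In MDA-MB-231 the sum was lower in Matrigel, 160 to 177 against 210 to 228. HIST1H1E averaged 1.97 and HIST1H3B 1.59. Transcripts of most of these genes lack a poly(A) tail. HIST1H3B alone stood at 211 and 0.115 CPM in flat A549 and MDA-MB-231, a wider gap than that of the list sums. HIST1H2AB averaged 2.03, which was 3.42 without flat MDA-MB-231 replicate 1, and HIST2H2AC 1.41, while HIST1H1C passed in opposite directions, 1.10 in A549 and -0.26 in MDA-MB-231. Of 17 genes of the BCL2 family 5 rose in both lines, 3 fell in both and 3 passed in opposite directions, with 4 rises and 2 falls without the trend and 8 rises without Matrigel A549 replicate 2; the list median of 0.10 was -0.01 without the trend and -0.39 on log2(TPM + 1). BMF and BAD, which promote apoptosis, averaged 1.29 and 0.97, and BCL2A1, which opposes it, -2.59; BOK, of the same family, passed in opposite directions, -1.43 in A549 and 1.10 in MDA-MB-231. Of 11 metallothioneins and zinc transporters 1 rose in both lines, 2 fell in both and 2 passed in opposite directions, with 1 rise and 2 falls without the trend. The shares in the main analysis were 9.09% rises and 18.2% falls. The importers SLC39A6 and SLC39A10 averaged -0.87 and -1.19 and the metallothionein MT1X 1.38, and MT2A passed in opposite directions, -1.05 in A549 and 1.01 in MDA-MB-231.

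Scaling touched the direction of many shared calls. On log2(TPM + 1) the median over all genes was lower by 0.35 than in the main analysis, and 10.9% of the 5725 genes that changed the same way were higher in Matrigel, against 48.7% of 4810. With TPM rescaled after small and ribosomal RNA genes were set aside, an alternative chosen after seeing the data, the shift was 0.21 and 23.8% were higher. Relative to the median of all genes on log2(TPM + 1), the median of the mitosis list was -1.06, that of the YAP and TAZ targets -0.79 and that of ribosome biogenesis -0.54, while glycolysis stood at 0.71, the respiratory chain at 0.31, the lysosome at 0.44, MHC class I at 0.58 and complement at 1.35. Rises called in both lines there numbered 9 for glycolysis, 5 for hypoxia-induced genes, 4 for the respiratory chain, 4 for fatty acid oxidation, 8 for NRF2 targets, 4 for the lysosome, 5 for MHC class I, 7 for interferon-stimulated genes and 6 for detoxification, fewer than in the main analysis in each. Over all genes tested such rises numbered 625 there, against 2344 in the main analysis. Across the 221 list members named as changed the same way, 125 kept that call in every alternative tried, the test against a fold of 2 not counted. The call was lost without the GC and length trend for 56 of them: ACADS, ADAM17, ARRDC2, BAD, BCL2A1, CCND3, CCT2, CEBPB, COX5B, DDX52, DLAT, DPM3, EDEM2, ELOVL6, EPHX1, EREG, GPAM, GSTP1, HES4, HIST1H2AB, HIST1H3B, HIST2H2AC, HMGCS1, HNRNPR, HSPA4L, ID1, IFITM2, IGFBP3, ISG20, KLF6, KRT18, KRT8, LBR, MRPL4, MRPL41, MRPS26, MT1X, NDUFA13, NDUFS7, NOP58, OST4, PSME1, RBL1, RBPJ, RFNG, RFXANK, RPS19, RPS28, RPS9, S100A13, SLC7A11, SMC2, SMURF2, SNAI2, WDR43 and ZEB2. On log2(TPM + 1) it was lost for 66: ACO1, ADAM15, ADAMTS9, AGR2, ALG3, ARHGEF2, ARRDC2, ARRDC3, BAD, BMF, BTG1, CCND3, CEBPB, COL4A5, COX5B, CPT1A, CRELD2, CRTAP, DDR1, DPM3, EDEM2, EPHX1, FDXR, FN1, FZD1, GBP2, GSTP1, HFE, HIST1H1E, HIST1H2AB, HIST1H3B, HIST2H2AC, HLA-E, HLA-F, IDH2, IGFBP3, ISG20, KDM5B, KMT2C, KRT18, KRT8, LMNA, LOXL4, MLXIP, MRPL4, MRPL41, MRPS26, MT1X, NEU1, OST4, P4HB, PECAM1, PEX6, PSME1, RFNG, RFXANK, RPL13, RPS19, RPS28, RPS9, S100A13, SESN2, TGFBR2, TNFSF10, TNIP1 and TXNIP. Leaving out 1 library ended it for 9: for EDEM2 with 11 of the 12 libraries left out in turn, for MRPL4 with 5, for CEBPB, P4HA3 and ZEB2 with 4 each, for ELOVL6 with 3, for NRG1 with 2 and for HLA-F and RBPJ with 1 each, Matrigel A549 replicate 3. Of 58 lists other than markers with 5 or more tested members, 36 held more shared rises than falls and 21 more falls; the split was 33 and 22 without the trend, 12 and 44 on log2(TPM + 1) and 23 and 31 with small RNA set aside. When 1 library was left out, 3 list counts of 5 or more moved by over 1.5 times, those given above for ATF4, mitochondrial ribosomal protein and BCL2 family rises, as did 24 counts under 5. Of the 16 list directions with 0 shared members by edgeR, 13 also had 0 at an unadjusted p under 0.05, with DESeq2 and with voom; the others had 1 each, in mitosis rises, in cohesin and condensin rises (DESeq2) and in MHC class I falls (voom).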

How the data were processed

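Stranded total RNA libraries of 12 samples were analysed from 1 gene table each. The expected counts and the TPM values were deposited by the authors and made with RSEM against hg19, per the submitters' processing notes. For the RSEM version, aligner, annotation and counting strand, the entry is: not given in the sources used here. Columns of other series numbered 0.

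The expected counts were first rounded. filterByExpr kept 15304 of 27968 genes, which were scaled by TMM (factors 0.809 to 1.13) and fitted with 4 group means in edgeR 4.0.16 (R 4.3.3; glmQLFit and glmQLFTest, robust), two-sided, with Benjamini-Hochberg adjustment over all genes at 0.05. A standard error is the size of the log2 fold change divided by the square root of F. CPM values are TMM-normalised. Alternatives used DESeq2 1.42.0, limma 3.58.1 (voom with quality weights, and log2(TPM + 1), pseudocount 1), other scalings and filters, a GC and length trend removed by loess, replicate blocks and each library left out. The fitting code was tested on simulated data. GC content came from GENCODE transcripts for 15066 genes (98.4%), and promoters from RefSeq GRCh38.p14, matched by symbol, with no coordinates carried between builds. Single values of libraries were tested by exact permutation within lines.

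The named genes were the 10 largest rises and 10 largest falls by the smaller change of the 2 lines, among 3595 genes changed the same way with average log2 CPM of at least 3, more than 3 counts in every group and flat and Matrigel libraries apart in both lines; small RNA genes, LOC numbers, XIST and Y-linked genes were left out. Added to them were up to 3 genes per direction with at most 3 counts in the same culture of both lines, the 2 largest opposite changes per direction, and per list up to 4 members with the smallest p of the average and the opposite member with the smallest p of the line difference; HMMR, MKI67, CD74, CD3E, TYROBP and PTPRC are named for a sequence, a count or as markers, outside that rule. Of the falls, 1 is not reported here, nor are 4 list members that changed the same way and 4 that passed in opposite directions, which stay in the counts of their lists. Members and lists were chosen with earlier results of these data known. Count depth limits the precision: the shallowest library, 5609327 counts, is in Matrigel A549. Same-numbered libraries did not deviate together (18 pairs, r from -0.136 to 0.0972), so the numbers were not taken as pairs. Libraries of 1 group differed by more than counting noise (chi-square per degree of freedom 2.60 to 150.5).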

Additional observations from a re-analysis of the deposited data

Results flagged for a closer look

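The size of the change differed between the lines in 8593 genes (56.1% of those tested; edgeR interaction test, adjusted p under 0.05), so a shared direction was often not a shared size. Among the 221 list members named as changed the same way, 151 passed that test. In log2 units of the A549 change minus the MDA-MB-231 change, the difference was 1.96 for MUC5B, 3.16 for HLA-DMB, 4.06 for FCGBP and 1.58 for C3, all with the larger rise in A549. Among the shared falls it was -2.70 for TAGLN, -1.17 for PEAR1, -0.91 for KRT7-AS, -0.62 for DDX12P and -3.17 for COL4A1, with the larger fall in A549, and 1.16 for GFRA1 and 0.86 for LTB4R, with the larger fall in MDA-MB-231. For the genes with opposite changes it was 5.95 for COBL, 5.49 for LAMA4, -4.40 for CRISPLD2 and -4.03 for HMOX1.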

How the results depend on the processing

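The number of genes changed the same way stayed within 1.5 times the reported 4810 in every alternative but the test against a log2 fold change of 1, which called 350 (206 higher, 144 lower), 1278 on the average (776 higher, 502 lower), 2142 for the line difference and 94 in opposite directions. By limma on log2(TPM + 1), 2452 were higher and 9247 lower on the average, and 625 and 5100 in both lines; with small and ribosomal RNA genes set aside from TPM, chosen after seeing the data, 7643 were lower on the average and 1169 higher and 3749 lower in both lines. Leaving out 1 library gave 9804 to 10873 calls on the average (4911 to 5593 higher, 4864 to 5280 lower), 4330 to 5538 in both lines (2087 to 2733 higher, 2243 to 2805 lower), 7960 to 8975 for the line difference and 1877 to 2493 in opposite directions. With a replicate block 4563 genes changed the same way, and 4555 with a replicate block within line; since the numbers did not pair the libraries, and 3 of 12 correlated best with their own number, this says nothing of the effect. No count was had for the average with each line fitted alone, since that fit has no average; 4484 genes passed in both lines there.

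The difference in ribosomal RNA share, Matrigel minus flat, was -0.984 points when taken on TPM (exact permutation p = 0.485). Of 296 single genes under 27 settings, the sign of the average turned without the GC and length trend for HMOX1 (-0.0184), STT3B (0.15), OST4 (-0.16), DPM3 (-0.16), PSMC3 (-0.26), RPS2 (-0.27), MRPL41 (-0.15), MRPS26 (-0.14), BANF1 (-0.25), ACTG1 (-0.0906) and HIST1H1C (-0.28). On log2(TPM + 1) it turned for COBL (0.0125), HMOX1 (-0.19), ME1 (-0.0099), PDIA4 (-0.22), OST4 (-0.0047), PSMC3 (-0.39), RPS2 (-0.15), BANF1 (-0.33), ACTG1 (-0.31), ITGA5 (-0.18), CALR (-0.20), ACO1 (-0.0744), HES1 (-0.16) and HIST1H1C (-0.15), and with small RNA set aside for COBL (0.26), PSMC3 (-0.17), BANF1 (-0.11) and ACTG1 (-0.0872). The cause was not tested. Depth limits genes of few counts, above all in Matrigel A549.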
